A study of Mus musculus with 14 samples.

Results

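The mouse genes Dkk3, Sfrp1, Wif1, Apcdd1, Tle4 and Dkk4, named as antagonists of Wnt signalling, were followed in sorted hair follicle stem cells. The 6 genes were given by name, out of 34260 genes with at least 1 count, and all 6 were among the 24592 genes that passed the filter on low counts. Total RNA was sequenced from back skin cells of mice aged 18 days (P18) or 20 days (P20). Each genotype had 3 libraries at P18 and 4 at P20. The sort kept cells that carried CD34 and the marker the labels spell CD45f, and dropped those with Ly-6A/E. Irx5KO stands for a knockout of the transcription factor gene Irx5 and WT for wild type; the strain, the part of the gene that was removed and whether libraries came from separate animals were not given in the sources used here, so p-values measure the spread between libraries, which may be technical.

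A 6-digit code in the deposited data, read as a date, divided each age into an earlier and a later batch with both genotypes in each. What the code marks is not given. Of the P18 libraries, those labelled Irx5KO 1, WT 1 and WT 2 lay in the earlier batch. The later P18 batch consisted of Irx5KO 2 and 3 with WT 3, and the data of this last library also carry the word het. At P20 the libraries numbered 1 and 2 formed the later batch and those numbered 3 and 4 the earlier one. Library totals ran from 13618367 to 70083873 estimated counts. The targeted gene Irx5 had 48.0 to 73.4 CPM (counts scaled to a common library total) in the P18 libraries labelled Irx5KO against 93.8 to 132 in those labelled WT. In the later P20 batch it had 30.0 and 18.1 CPM in Irx5KO against 108 and 93.5 in WT. In the earlier P20 batch it went against the labels, with 181 and 170.1 CPM in the libraries labelled Irx5KO against 33.2 and 37.5 in those labelled WT. Mki67, a gene of dividing cells, moved in the same sense. It had 1252 and 1418 CPM in the earlier P20 libraries labelled Irx5KO and 429 and 228 CPM in the later ones labelled WT, against 3.75 to 36.5 CPM in the other 10 libraries. Counts on olfactory and vomeronasal receptor genes took 5.29% of the library labelled P18 WT 2, 2.34% of P20 WT 2 and 1.75% of P18 WT 1, against 0.101% to 0.597% elsewhere. The bulge markers Cd34 (242 to 919 CPM), Krt15 (4830.0 to 17218 CPM) and Lgr5 (187 to 437 CPM), picked here to check the sort, were present in every library. They are taken from 16 bulge markers used below, of which Fgf18 and Bmp6 went lowest. Fgf18 ranged from 1.71 CPM (P20 Irx5KO 4) to 74.2, and Bmp6 from 3.30 CPM (P20 Irx5KO 3) to 48.7.

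Wnt proteins bind Frizzled receptors and the co-receptors Lrp5 and Lrp6, which stops the breakdown of beta-catenin and lets it switch on target genes with TCF/LEF factors. In the hair follicle this signal drives the start of a new growth phase, and bulge stem cells are known for making inhibitors that hold it down while they rest. Sfrp1 and Wif1 are secreted proteins that bind Wnt ligands. Dkk4 is secreted and blocks Lrp5 and Lrp6, whereas its relative Dkk3 is a divergent member of that family and a known bulge gene. Apcdd1 is a membrane protein that inhibits Wnt signalling and is mutated in a hereditary hair loss of humans. Tle4 is a nuclear co-repressor of the Groucho family that binds TCF/LEF factors, so it is neither secreted nor in the membrane as the wording of the gene choice has it.

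The counts of Dkk3, Sfrp1 and Dkk4 each came from a single annotated transcript, while those of Tle4, Wif1 and Apcdd1 were divided by estimate between several. The sequences below show exon letters in which coding transcripts of Tle4 and Wif1 differ, in the GRCm38 build with GENCODE M21 annotation. Tle4-201 and Tle4-202 differ in exon 8, 17 bases long, at chr19:14516359-14516375 and chr19:14491783-14491799 on the minus strand. Wif1-201 holds 42 bases at the end of exon 8, at chr10:121096053-121096094 on the plus strand, that Wif1-203 lacks. Capitals mark those bases and small letters the 15 bases of the neighbouring exon sequence on each side.
Tle4-201: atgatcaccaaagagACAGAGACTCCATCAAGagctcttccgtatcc
Tle4-202: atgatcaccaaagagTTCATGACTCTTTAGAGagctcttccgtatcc
Wif1-201: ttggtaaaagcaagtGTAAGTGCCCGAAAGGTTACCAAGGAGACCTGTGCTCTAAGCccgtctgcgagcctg
The Tle4 exons share 8 of 17 bases and differ at 9. The 42 bases of Wif1 amount to 14 codons. Wif1-201 and Wif1-203, of 2294 and 2183 bases, also differ outside this stretch.

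Tle4-201 held 97.9% of the Tle4 counts of the 14 libraries, and Tle4-202 held 0.17%, with at least 1 count in 2 libraries only. The Tle4 values that follow are therefore values of the form with the first of these exons. Wif1-201 held 68.7% of the Wif1 counts and Wif1-203 22.9%, but the share of Wif1-201 ran from 0% to 100% between libraries with 25 to 275 Wif1 counts each. In the library labelled P18 Irx5KO 2, all 25 Wif1 counts were assigned to Wif1-202, a transcript with a retained intron. Of the Apcdd1 counts, 70.3% went to Apcdd1-203, a transcript of 10879 bases, and 18.3% to Apcdd1-202. Since these forms share most of their sequence, results were taken from gene sums.

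**Figure D1:**
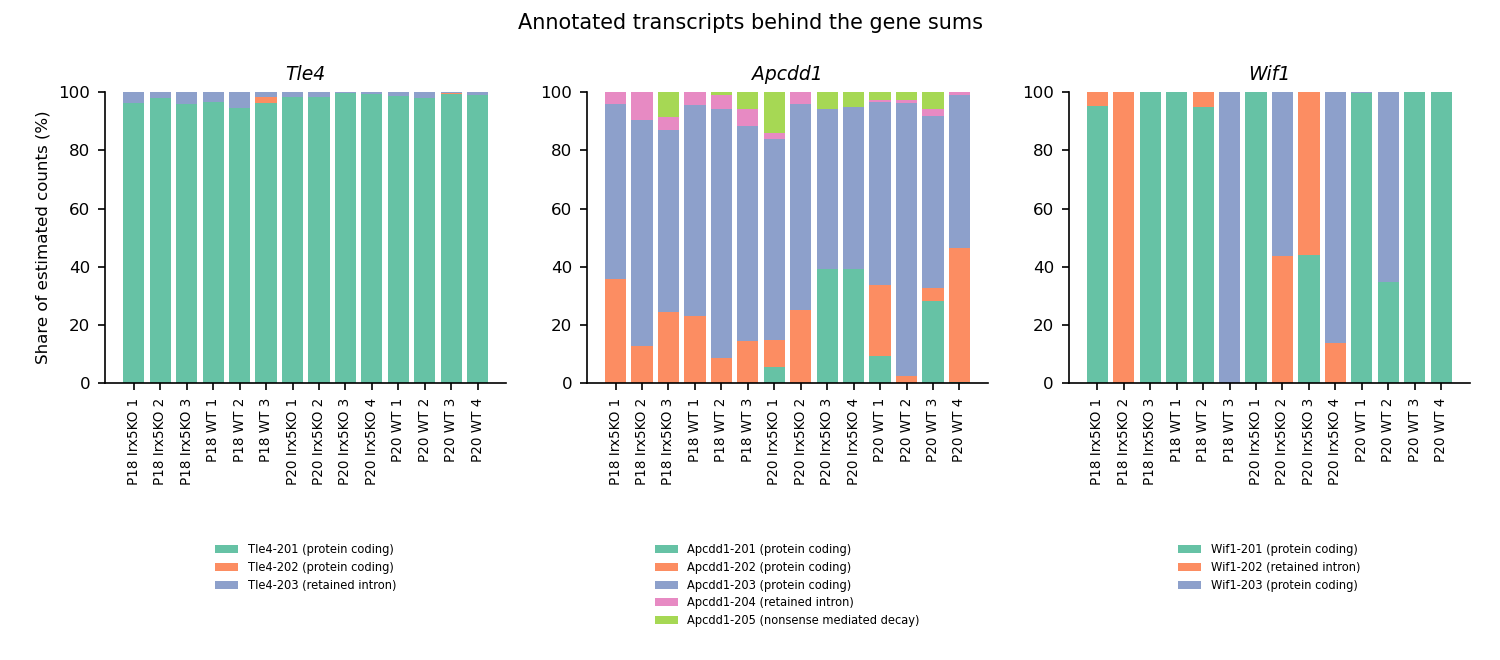
Share of the estimated counts of each gene (y axis, percent) assigned to each annotated transcript in each of the 14 libraries (x axis) for Tle4, Apcdd1 and Wif1. Tle4 rests on Tle4-201 throughout (94.6% to 99.9%), Apcdd1 mainly on Apcdd1-203 (52.7% to 93.9%), and the Wif1 bars change from one form to another between libraries.

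On the deposited TPM scale, which corrects for transcript length, Sfrp1 had a median of 129 TPM over the 14 libraries (36.6 to 254) and Dkk3 a median of 95.9 TPM (44.7 to 182). Tle4 came next with a median of 27.1 TPM (19.0 to 54.4), then Apcdd1 with 10.7 TPM (5.02 to 20.6), Wif1 with 2.66 TPM (0.404 to 7.70) and Dkk4 with 0.292 TPM (0 to 1.23). Tle4 was above Apcdd1, and Apcdd1 above Wif1, in all 14 libraries, and Wif1 was above Dkk4 in 13. Sfrp1 and Dkk3 did not hold a fixed order, Sfrp1 being the higher in 6 libraries. Dkk4 was close to the limit of detection, with 239 counts in all and 0 in 3 libraries, so little can be read from its changes.

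Sfrp1 had 485, 523 and 531 CPM in the P18 libraries labelled Irx5KO and 347, 297 and 545 in those labelled WT. The P18 genotypes overlapped. In the later P20 batch it had 192 and 135 CPM in Irx5KO against 546 and 658 in WT, 3.68-fold lower by the means. In the earlier P20 batch it had 1019.9 and 967 CPM in the libraries labelled Irx5KO against 285 and 441 in those labelled WT, 2.74-fold higher. The genotypes did not overlap in either P20 batch, and the direction by label was opposite. The share of all genes without overlap was not counted, for this gene or for those below. In the earlier batch that direction rests on labels that the level of Irx5 goes against. In edgeR the log2 difference was -1.88 ± 0.28 (SE, 2 libraries against 2, adjusted p 0.0042) in the later batch and 1.45 ± 0.28 (adjusted p 0.0061) in the earlier one. The 2 differences themselves differed by 3.33 ± 0.40 (adjusted p 9.7e-05), and this held in every other setting and with each library left out, with adjusted p up to 0.0065. The later-batch call was lost without the library labelled P20 Irx5KO 1 (adjusted p 0.062) or P20 Irx5KO 2 (adjusted p 0.24) and with the 4 compared libraries fitted alone (adjusted p 0.072), and the earlier-batch call without P20 WT 3 (adjusted p 0.21). With TMM library factors over all genes, both were lost (adjusted p 0.16 and 0.12).

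**Figure D2:**
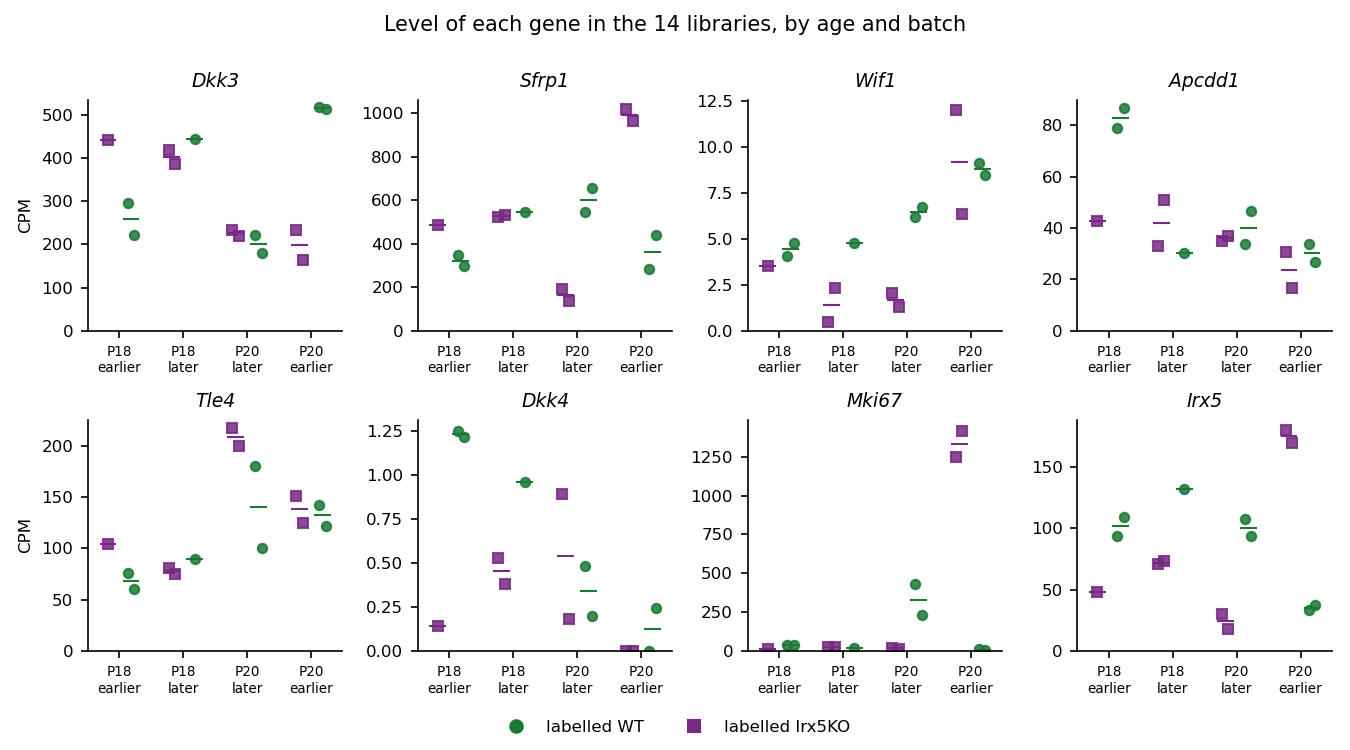
Level of each of the 6 genes, of Mki67 and of Irx5 in CPM (y axis, from 0, own scale in each panel) in each library, by age and batch (x axis); squares are libraries labelled Irx5KO, circles those labelled WT, and short lines the means. At P20, Sfrp1 is low in Irx5KO of the later batch (135 and 192 CPM) and high in the libraries labelled Irx5KO of the earlier batch (967 and 1019.9 CPM), as Mki67 and Irx5 are.

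Dkk3 had 443, 420.1 and 387 CPM in the P18 libraries labelled Irx5KO and 296, 221 and 446 in those labelled WT, which overlapped. In the later P20 batch it had 233 and 219 CPM in Irx5KO and 222 and 179 in WT, again overlapping, with a log2 difference of 0.17 ± 0.26 (adjusted p 0.92). In the earlier P20 batch the libraries labelled Irx5KO had 233 and 165 CPM against 519 and 516 in those labelled WT, 2.60-fold lower. The log2 difference there was -1.38 ± 0.26 (edgeR, adjusted p 0.0056), and it differed from that of the later batch by -1.55 ± 0.36 (adjusted p 0.019). Dkk3 was thus high in both P20 libraries labelled WT of the earlier batch and in 4 of 6 P18 libraries, and at 296 CPM or less in the rest. The earlier-batch call was lost without P20 Irx5KO 4 (adjusted p 0.093) or P20 WT 3 (adjusted p 0.053), and with TMM factors over all genes (adjusted p 0.084). The difference between batches was lost without any one of Irx5KO 1, 2 or 4 or WT 3 or 4 of P20 (adjusted p 0.061 to 0.10), with those factors (adjusted p 0.19) and with replicate number as a block (adjusted p 0.050).

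**Figure D3:**
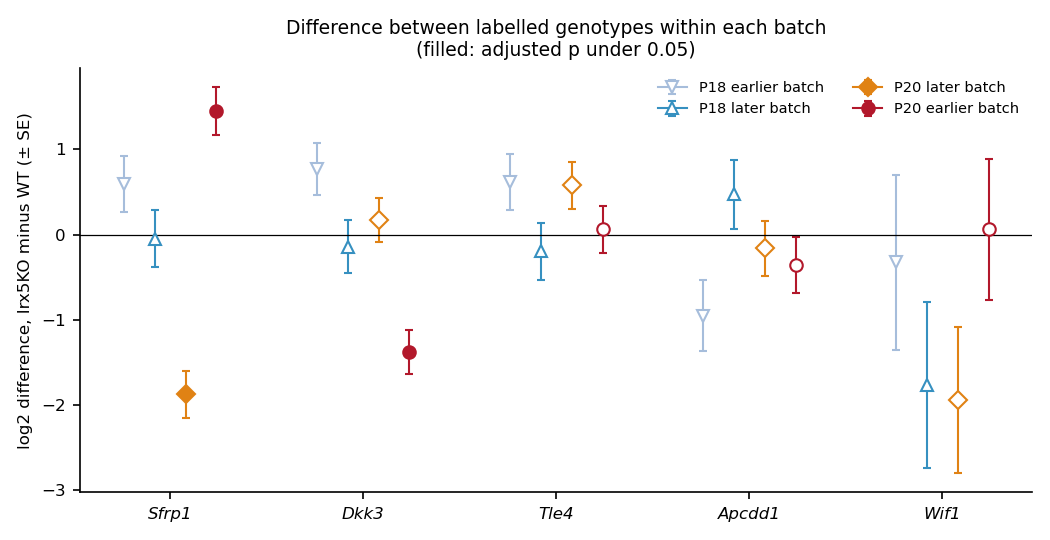
Log2 difference of the libraries labelled Irx5KO minus those labelled WT (y axis, points with ± SE from edgeR) within each batch for 5 of the genes (x axis), Dkk4 being left out for its low counts; filled symbols have an adjusted p under 0.05. Sfrp1 lies at -1.88 and 1.45 in the later and earlier P20 batches and Dkk3 at 0.17 and -1.38, and no P18 value passed.

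Because both genes are measured in the same library, their ratio does not depend on how libraries are scaled. Sfrp1 over Dkk3 by TPM lay between 0.836 and 1.05 in the 6 P18 libraries. At P20 it was 0.627 and 0.472 in Irx5KO and 1.88 and 2.80 in WT of the later batch. In the earlier batch it was 3.33 and 4.48 in the libraries labelled Irx5KO and 0.419 and 0.653 in those labelled WT. The 4 P20 libraries with a ratio of 1.88 or more are those with 228 to 1418 CPM of Mki67, and the other 4 had 3.75 to 18.5 CPM of it. The name of a resting bulge group therefore goes against the P20 values of Sfrp1, which were highest in those 4 libraries. The lowest of them, P20 WT 1 at 546 CPM, was level with P18 WT 3 at 545 CPM, where Mki67 was at 19.6. For Dkk3 the 4 libraries had 165 to 233 CPM, but P20 Irx5KO 1 and 2, with 18.5 and 14.5 CPM of Mki67, had no more than 233 either. The libraries were not divided by Mki67 for any test, and its part in the results was not tested.

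**Figure D4:**
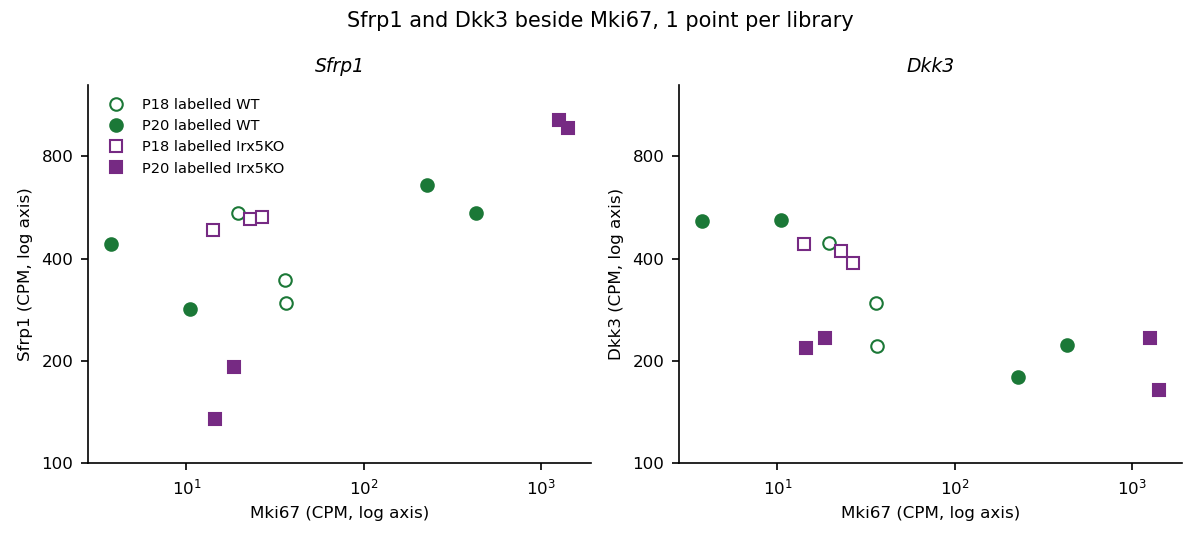
Sfrp1 (left) and Dkk3 (right) in CPM (y axis, log) against Mki67 in CPM (x axis, log), with 1 point per library; open symbols are P18, filled P20, squares labelled Irx5KO and circles labelled WT. Sfrp1 reaches 967 and 1019.9 CPM at the highest Mki67, while Dkk3 is at 516 and 519 CPM in the P20 libraries labelled WT with the lowest.

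Wif1 was scarce. It had 3.54, 0.47 and 2.33 CPM in the P18 libraries labelled Irx5KO and 4.07, 4.80 and 4.80 in those labelled WT. These did not overlap, but the log2 difference of -1.05 ± 0.73 did not pass (edgeR, adjusted p 0.64), and an exact two-sided permutation test of CPM gave p 0.1, the smallest that 3 against 3 allows. In the later P20 batch it had 2.07 and 1.28 CPM in Irx5KO against 6.18 and 6.75 in WT. That is a log2 difference of -1.94 ± 0.86 that did not pass (adjusted p 0.68). In the earlier P20 batch the libraries labelled Irx5KO, at 12.0 and 6.35 CPM, lay on either side of those labelled WT, at 9.15 and 8.47. Where the batches gave opposite differences of Sfrp1, the difference of Wif1 between batches was 2.00 ± 1.18 and did not pass (adjusted p 0.47).

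Dkk4 had 0.14, 0.53 and 0.38 CPM in the P18 libraries labelled Irx5KO against 1.25, 1.21 and 0.96 in those labelled WT, from 5 to 46 counts a library. These did not overlap, which was not set against all genes. The log2 difference did not pass (edgeR, adjusted p 0.74), and the permutation p was again 0.1. At P20 it had at most 31 counts in a library, and 0 in P20 Irx5KO 3, Irx5KO 4 and WT 3.

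Apcdd1 had 42.7, 32.8 and 50.9 CPM in the P18 libraries labelled Irx5KO, and 78.9, 86.5 and 30.2 in those labelled WT. The 2 highest of all 14 libraries were P18 WT 1 and P18 WT 2, which are also among the 3 richest in receptor genes. The third of these, P20 WT 2, had 46.4 CPM, the highest at P20, where the other 7 libraries had 16.5 to 36.8 CPM. Without those 3 libraries only 1 WT library is left at P18, P18 WT 3, and only the later P18 batch can be compared. The P18 log2 difference was then 0.46 (edgeR), which is not separate from the later-batch value below. The difference of P20 from P18 in WT, against that 1 P18 library, was 0.015. It was -0.89 ± 0.35 with the 3 libraries kept (edgeR, adjusted p 0.39). With them the P18 log2 difference of -0.24 ± 0.28 did not pass either (edgeR, adjusted p 0.79), and it was -0.95 in the earlier P18 batch and 0.47 in the later one. At P20 Apcdd1 did not pass in either batch, with -0.16 ± 0.33 in the later and -0.35 ± 0.33 in the earlier (adjusted p 0.95 and 0.68).

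Tle4 had 105, 80.5 and 75.1 CPM in the P18 libraries labelled Irx5KO, and 75.9, 60.8 and 89.2 in those labelled WT. At P20 it had 218, 200.4, 151 and 125 CPM under the label Irx5KO and 180.0, 99.9, 142 and 122 under the label WT. In CPM every P20 library was above every P18 library of the same label. By TPM this did not hold in Irx5KO, where P20 Irx5KO 4 (25.2 TPM) was below P18 Irx5KO 1 (28.8 TPM). The log2 difference of P20 from P18 was 0.85 ± 0.26 in WT (edgeR, adjusted p 0.25) and 1.00 ± 0.27 in Irx5KO (adjusted p 0.078), and neither passed. In WT it passed with DESeq2 (adjusted p 0.026) and voom (adjusted p 0.00078). There DESeq2 called 682 genes and voom 14315, against 48 in edgeR. Apcdd1, Dkk3, Dkk4 and Wif1 passed with voom as well, so that pass says little of Tle4 in particular. In Irx5KO Tle4 passed with DESeq2 (adjusted p 0.013), voom (adjusted p 0.0049) and the replicate number as a block (adjusted p 0.043). These called 1390, 1282 and 368 genes, against 386 in the main edgeR fit. The exact permutation p of Tle4 was 0.0571 in each genotype, the smallest that 4 against 3 allows. Each age has its own batches, so age and batch cannot be told apart. Between genotypes Tle4 did not pass in either P20 batch, with 0.58 ± 0.28 in the later (adjusted p 0.72) and 0.06 ± 0.28 in the earlier.

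Counted over the 6 genes, none passed at P18, where 0.00407% of all genes tested did, with a median log2 difference of -0.02 over the 6, -0.54 over all genes and -0.0031 over the 10536 well expressed genes (mean of at least 8 CPM). The share of all genes with an unadjusted p under 0.05 was 6.52%, and no member was among them. With both P20 batches averaged, none of the 6 passed, against 0.0488% of all genes. That average joins batches in which Irx5 differed by -2.06 and 2.31 on the log2 scale, and the opposite values of Sfrp1 average to -0.21 ± 0.19. Dkk3 alone had an unadjusted p under 0.05, as 9.04% of all genes did, and had -0.60 ± 0.18 (adjusted p 0.27). In the later P20 batch 1 of 6 passed, Sfrp1, which fell, where 0.655% of all genes passed. In the earlier P20 batch Sfrp1 rose and Dkk3 fell, 2 of 6 where 4.83% of all genes passed. The difference between the P20 batches passed for the same pair, where 5.18% of all genes passed. Between ages none of the 6 passed in WT or in Irx5KO, where 0.195% and 1.57% of all genes did. The age comparisons, here and in the lists below, pool both P20 batches, in which Irx5 differed in opposite directions by label. An unadjusted p under 0.05 was found for Tle4 and Apcdd1 in WT, where 9.68% of all genes had one, and for Tle4 and Dkk3 in Irx5KO, where 13.5% did. With DESeq2, Dkk3 passed in the averaged P20 comparison (adjusted p 0.049), where DESeq2 called 572 genes and edgeR 12. Of the age values, Dkk3 in Irx5KO had -0.97 ± 0.35 (adjusted p 0.22), all 4 P20 libraries being below all 3 of P18. In WT the ages did not overlap for Wif1, higher at P20, nor for Dkk4, lower at P20. The exact permutation p was 0.0571 for each, and neither passed in edgeR (adjusted p 0.68 and 0.66).

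The counts of the Wnt gene lists that follow are to be read against the shares of all genes that passed, 0.655% in the later P20 batch, 4.83% in the earlier one, 0.00407% at P18, and 0.195% in WT and 1.57% in Irx5KO with age. Of 27 other Wnt antagonists, chosen for comparison, Igfbp4 and Sostdc1 fell in the later P20 batch and rose in the earlier one. Igfbp4 encodes a secreted protein that binds insulin-like growth factors and is reported to block Frizzled and Lrp6. It had 155 and 164 CPM in Irx5KO and 420.3 and 655 in WT of the later batch. In the earlier batch it had 879 and 774 in the libraries labelled Irx5KO against 238 and 294 in those labelled WT. The log2 differences were -1.75 ± 0.28 (edgeR, adjusted p 0.0062) and 1.64 ± 0.28 (adjusted p 0.0027), and that between batches was 3.39 ± 0.39 (adjusted p 8.3e-05). Igfbp4 therefore had the same signs as Sfrp1 in both batches, without overlap of the genotypes in either.

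Sostdc1, a secreted antagonist of both BMP and Wnt signals, had 43.8 and 29.0 CPM in Irx5KO and 274 and 367 in WT of the later batch. In the earlier batch it had 682 and 689 CPM under the label Irx5KO and 57.5 and 181 under the label WT. The log2 differences were -3.14 ± 0.53 (adjusted p 0.028) and 2.52 ± 0.52 (adjusted p 0.022). Lrp4, a membrane receptor that dampens Wnt signalling, fell in the earlier batch, from 84.2 and 78.4 CPM in the libraries labelled WT to 45.2 and 22.0 in those labelled Irx5KO, as Dkk3 did (-1.28 ± 0.30, adjusted p 0.024). The other 24 antagonists did not pass in either P20 batch, and the median over the 27 was -0.36 in the later batch and -0.71 in the earlier, against -0.34 and 0 over all genes tested and -0.050 and -0.0047 over the well expressed ones. None of the 27 passed at P18 or with age.

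Among 7 Groucho co-repressors and partners tested beside Tle4, Hdac2 alone passed in the earlier P20 batch. This histone deacetylase, which Groucho proteins recruit, rose by 1.07 ± 0.27 (edgeR, adjusted p 0.032). None of the 7 passed in the later batch. Tle1, a close relative of Tle4, had 37.1 to 60.1 CPM in the P20 libraries labelled Irx5KO against 91.4 to 132 at P18. It was 1.10 ± 0.24 lower on the log2 scale at P20 (adjusted p 0.033), while the fitted value of Tle4 was positive.

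Of 19 Wnt ligands, none passed in the later P20 batch and 4 passed in the earlier one, where 4.83% of all genes did. Wnt7b, an epithelial ligand of the hair follicle, rose by 1.71 ± 0.32 (edgeR, adjusted p 0.0052), from 23.1 and 39.4 CPM in the libraries labelled WT to 124 and 80.3 in those labelled Irx5KO. It was also 2.70 ± 0.51 higher at P20 than at P18 in Irx5KO (adjusted p 0.016). Wnt11, a ligand of the beta-catenin-independent branch, fell by 3.38 ± 0.60 on the log2 scale (adjusted p 0.0049), from 34.7 and 22.8 CPM under the label WT to 3.23 and 2.32 under Irx5KO. Wnt10b and Wnt9a were lower as well, being at 0 in both libraries labelled Irx5KO and at 1.51 to 3.30 CPM in those labelled WT.

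Of 16 receptors and co-receptors, Ror1 fell in the later P20 batch and Ror1, Ror2, Fzd2 and Fzd5 passed in the earlier one, where 0.655% and 4.83% of all genes did. Ror1 and Ror2, receptors for Wnt5a, rose there by 2.34 ± 0.39 (adjusted p 0.0023) and 3.25 ± 0.76 (adjusted p 0.023). The Frizzled receptor Fzd5 fell by 1.71 ± 0.27 (edgeR, adjusted p 0.0015). Ror1 was -2.26 ± 0.39 in the later batch (adjusted p 0.010), where it had 8.86 and 11.3 CPM in Irx5KO against 54.1 and 42.6 in WT. Its signs were those of Sfrp1 in both batches.

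Among 10 genes of Wnt secretion and agonists, Lgr6, an R-spondin receptor, fell in the later P20 batch by 1.64 ± 0.27 (edgeR, adjusted p 0.0083), and none passed in the earlier one. Inside the cell, none of 19 genes of the destruction complex and Dishevelled, nor of 11 for beta-catenin and TCF/LEF factors, passed in either P20 batch. Axin2, a feedback target of Wnt signalling within the first of these lists, had -1.19 ± 0.37 in the earlier batch (adjusted p 0.089). Of 22 Wnt target genes, Mycn and Ccnd1 rose in the earlier batch by 2.62 ± 0.61 and 1.41 ± 0.34 (adjusted p 0.023 and 0.025), and none passed in the later one. Both encode drivers of cell division. With age, Axin1, the scaffold of the destruction complex, and Mycn rose in Irx5KO by 1.31 ± 0.25 (adjusted p 0.016) and 3.94 ± 0.71 (adjusted p 0.012). Mycn had 10.5 and 11.8 CPM in P20 Irx5KO 1 and 2. It had 48.5 and 30.9 in P20 Irx5KO 3 and 4, where Irx5 goes against the label. Axin1 had 127 and 153 CPM in the first pair and 84.2 and 87.4 in the second.

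**Figure D5:**
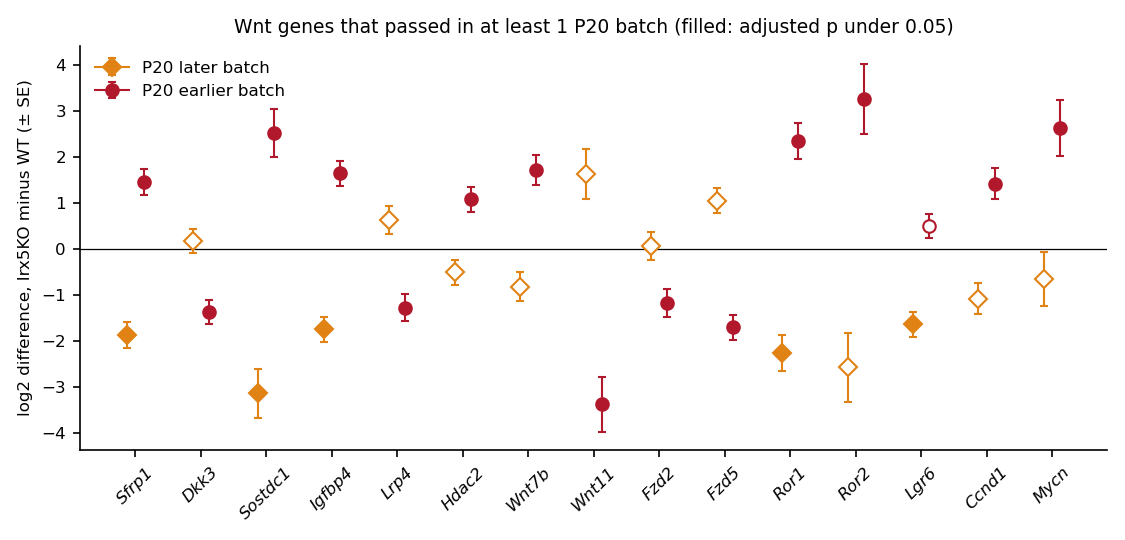
Log2 difference of libraries labelled Irx5KO minus WT (y axis, ± SE, edgeR) in the later and the earlier P20 batch for Sfrp1, Dkk3 and the genes of the Wnt lists (x axis) that passed in at least 1 P20 batch; filled symbols have an adjusted p under 0.05, and genes under 0.5 CPM in any P20 library are left out. Igfbp4, Sostdc1 and Ror1 passed in both batches with the signs of Sfrp1, negative in the later and positive in the earlier. By mean CPM Wnt7b, Ror2, Mycn, Ccnd1, Hdac2 and Lgr6 had the same signs, passing in 1 batch only. Dkk3, Lrp4, Wnt11, Fzd2 and Fzd5 had the opposite signs.

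Markers of the bulge and of division were set beside these values. Of 16 bulge markers, Postn, Angptl7 and Fgf18 fell in the earlier P20 batch, where Dkk3 fell and 4.83% of all genes passed, and none passed in the later one. Postn, a matrix protein, fell by 1.89 ± 0.31 (edgeR, adjusted p 0.0023), from 5218 and 5349 CPM in the libraries labelled WT to 1815 and 1038 in those labelled Irx5KO. Of 15 mitosis genes, 10 fell in the later batch and 14 rose in the earlier one, as Sfrp1 did, against 0.655% and 4.83% of all genes passing in either direction. The summed level of those 15 genes was 3099 and 3443 CPM in P20 Irx5KO 3 and 4 and 1025 and 587 CPM in P20 WT 1 and 2, against 20.1 to 214 CPM elsewhere. Fewer cells of a type and less RNA per cell cannot be told apart in such bulk libraries. The part of the share of dividing cells in the values of Sfrp1 and Dkk3 was not tested.

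Marker genes of other skin cells had counts that differed between libraries, and their part in the results was not tested. A marker is given as detected if it had any count in any library. Several sums rest on few genes, so they do not show that a cell type was present. In P20 Irx5KO 3, Pecam1 made up the endothelial sum of 6.87 CPM. Col1a1 (246 CPM) and Col1a2 (49.7 CPM) held most of its fibroblast sum of 305. Mitf held 237 of 247 CPM in the melanocyte sum of P20 WT 3. Tchh held 589 of 594 CPM in the hair shaft sum of P18 Irx5KO 3. Suprabasal markers (8 of 8 detected) summed to 1287 to 7039 CPM in the P20 libraries labelled Irx5KO and 1294 to 2705 in those labelled WT. In the later batch the sums were 7039 and 2058 CPM in Irx5KO against 2705 and 1741 in WT. In the earlier batch they were 1467 and 1287 CPM in the libraries labelled Irx5KO against 2541 and 1294 in those labelled WT. Whether these sums bear on Sfrp1 was not tested. Markers of dermal fibroblasts (8 of 8) summed to 52.6 to 305 CPM in the P20 libraries labelled Irx5KO and 118 to 328 in those labelled WT. Markers of the dermal papilla (8 of 8) summed to 92.3 to 157 and 92.4 to 129.6 CPM. Endothelial markers (8 of 8) summed to 5.35 to 33.0 and 7.22 to 40.0 CPM, and leukocyte markers (8 of 8) to 16.5 to 130.3 and 18.3 to 64.0 CPM. Melanocyte markers (8 of 8) summed to 76.5 to 231 CPM under the label Irx5KO and 112 to 255 under WT. Of them Mitf fell in the earlier P20 batch (-1.86 ± 0.29, edgeR, adjusted p 0.0013). In that batch, where 4.83% of all genes passed, 1 marker each of dermal papilla and sebaceous gland rose. Likewise 1 marker each of dermal fibroblasts, endothelium, and hair germ and matrix fell. Infundibulum and interfollicular markers summed to 2913 to 12685 CPM over all 14 libraries, sebaceous markers to 181 to 612, hair shaft and inner root sheath markers (7 of 8 detected) to 26.5 to 594, and hair germ and matrix markers to 275 to 473.

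The genes with the most similar profiles were found by the root mean square difference of centred log2(CPM + 0.5) over the 14 libraries, among genes with a mean of at least 8 CPM. For Sfrp1, whose own profile varied by 0.78 around its mean, these were Mcm4 (0.27), a subunit of the helicase that starts DNA replication, Igfbp4 (0.29) and Hmgn1 (0.30), a nucleosome-binding protein. For Dkk3, which varied by 0.56, they were Gsn (0.19), which severs actin filaments, Shisa5 (0.22) and Col4a2 (0.23), a basement membrane collagen. For Tle4, which varied by 0.55, they were Rnf10 (0.17), Gatad2a (0.18) and Cand1 (0.19). Those of Apcdd1 were Osbpl7 (0.28), Afg3l2 (0.28) and Atp5l (0.29), against 0.58 for its own variation. Those of Wif1 differed from it by 0.45 to 0.54, with Olfm1 the nearest, and those of Dkk4 by 0.31 to 0.38, with Chst15 the nearest. These are descriptions of shape over libraries that share their scaling, and carry no test.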

How the data were processed

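Single-end reads of total RNA were quantified by transcript in kallisto 0.46.2, per the labels' protocols. DESeq2 and mm10 appear in the submitters' processing notes as well. The authors deposited estimated counts (expected counts) and TPM for 118489 transcripts in each of 14 libraries, per the file headers. The annotation behind them is not given in the sources used here; 116816 transcripts matched GENCODE M21, and the 1673 others (1.19% to 2.59% of counts) were left out. Counts were summed per gene and rounded. The members and gene lists were chosen with earlier results of these data known.

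Genes were tested with the robust quasi-likelihood test of edgeR 4.0.16 (R 4.3.3), after its default filter, with Benjamini-Hochberg adjustment over 24592 genes and a threshold of 0.05. Library sizes were scaled by TMM factors over 10536 genes with a mean of at least 8 CPM, because receptor-rich libraries received factors of 1.27, 1.76 and 1.39 over all genes. Genotypes were compared in a fit with 1 coefficient per batch and labelled genotype (6 residual degrees of freedom) and ages in a fit with 1 per group. SE is the size of the log2 difference over the root of F, so it is approximate near 0. Single values were compared by exact permutation. Named genes were the 6 members, Irx5, Mki67 and the 3 nearest profiles per member. The rule for lists allowed up to 3 passing genes with the smallest p per list and comparison, or up to 2 not passing. Not every gene it allowed was named, among them mitosis genes and markers of other cells. Cd34, Krt15 and Lgr5 were named for the check of the sort. Deviations of libraries with the same replicate number had correlations of 0.374, 0.169 and 0.281 at P18 and 0.007 to 0.371 at P20. Libraries of unlike number were not correlated, so these values cannot show whether the numbers mark pairs. P18 Irx5KO 2 and P18 WT 2 also lay in different batches. The fits and permutation tests reported do not pair libraries, and the replicate block changed no P18 call. The alternatives were other scalings, filters and tools (DESeq2 1.42.0, limma 3.58.1), other designs, a replicate block and leaving out libraries.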

Additional observations from a re-analysis of the deposited data

Results flagged for a closer look

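Between the P20 batches, the log2 difference of libraries labelled Irx5KO from those labelled WT differed by 3.33 for Sfrp1 (edgeR, adjusted p 9.7e-05) and by -1.55 for Dkk3 (adjusted p 0.019), the earlier batch minus the later. In both cases the test was of the difference itself. Irx5 and Mki67 differed between the same batches in the same sense as Sfrp1, by 4.37 and 11.85 on the log2 scale.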

How the results depend on the processing

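Over the 7 comparisons, the count of the 6 genes that passed moved as follows. TMM factors over all genes gave 0 in the later P20 batch, 0 in the earlier and 1 for their difference (Sfrp1), against 1, 2 and 2; DESeq2 gave 1 for averaged P20 and 1 for age in each genotype, against 0; voom gave 1 for age in Irx5KO and 5 in WT, where it called 14315 genes in all. Fitting the compared libraries alone gave 0 in the later batch. Leaving out 1 library gave 0 to 1 in the later batch, 0 to 2 in the earlier and 1 to 2 for the difference, and 0 in the other comparisons. With the replicate block the difference gave 1 and age in Irx5KO 1 (Tle4), against 2 and 0, and it changed no other count. Libraries of the same number at P20 correlated at 0.007 to 0.371, which cannot show whether the numbers mark pairs. With TMM over all genes, Sfrp1 had adjusted p of 0.16 in the later batch and 0.12 in the earlier, and Dkk3 0.084 in the earlier. The median of well expressed genes was then -0.17 for the difference between batches, against 0.030 in the main setting. The Dkk3 difference was also lost under the block and without any of 5 P20 libraries (Irx5KO 1, 2 or 4, WT 3 or 4; adjusted p up to 0.10).

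Values that changed sign did so without passing, before or after. At P18 TMM over all genes gave Apcdd1 0.12, and without the receptor-rich libraries Tle4, Dkk3, Sfrp1 and Apcdd1 had -0.20, -0.15, -0.058 and 0.46. Without 1 library in turn they ran from -0.16 to 0.64, -0.11 to 0.80, -0.016 to 0.62 and -0.91 to 0.51. For averaged P20 without a batch term Dkk4 had 0.23 and Sfrp1 0.26, and Dkk4 ran from -2.90 to 0.35 without 1 library. In the later batch Apcdd1 had 0.12 without receptor-rich libraries and ran from -0.37 to 0.087, and Dkk4 from -0.84 to 1.43. In the earlier batch Wif1 had -0.049 and Tle4 -0.049 with TMM over all genes, Wif1 -0.090 with voom and -0.0093 with the block. Without 1 library Wif1 ran from -0.47 to 0.45, Tle4 from -0.10 to 0.20, Apcdd1 from -0.86 to 0.031 and Dkk4 from -6.01 to 0; for the difference Apcdd1 ran from -0.70 to 0.19. For age in WT without receptor-rich libraries, which leaves 1 P18 library, Dkk3, Sfrp1 and Apcdd1 had -0.13, -0.40 and 0.015. Without 1 library in turn Dkk3 ran from -0.10 to 0.45. For age in Irx5KO Sfrp1 had -1.03 with voom and -0.25 with the block, and ran from -0.24 to 0.38, and Dkk4 from -2.40 to 0.042. At P18, leaving out the receptor-rich libraries or P18 Irx5KO 1 leaves only the later batch to compare. In the main fit that batch had -0.20, -0.14, -0.05 and 0.47 for Tle4, Dkk3, Sfrp1 and Apcdd1. The cause of the other changes was not tested. Among single values of the members, 914 kept direction and side of the threshold and 40 changed sign. A further 16 lost a call and 10 gained one. The 914 include values that passed neither before nor after. Depth limits Dkk4 (0 to 46 counts) and Wif1 (25 to 275 counts).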
